A study of Mus musculus with 12 samples.

Results

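The cytosolic ribosomal protein genes are described here in CD4+ T cells sorted from mouse thymus. They were selected by symbol from the 13207 genes of the deposited table: Rpl or Rps followed by a digit, or Rpsa, Rplp0, Rplp1 or Rplp2. This pattern took 97 rows, from which 9 ribosomal S6 kinase genes and 4 rows with -ps in the symbol were left out. The remaining 84 genes carry 50 large subunit and 34 small subunit symbols. The family was chosen on earlier results of both comparisons below, so its counts and medians are a description, and no test of the family as a whole was made. Among them, Rps19bp1 encodes a protein that binds the ribosomal protein S19 and is not itself part of the ribosome.

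Cells came from thymuses of C57BL/6 mice that were injected intraperitoneally with 10 μg tamoxifen per g body weight in olive oil and killed 7 days later. CD73+ newly generated regulatory T cells (CD73+ Treg) were sorted as CD4+ tdTomato+ GFP+ CD73+, and CD73– newly generated Treg (CD73– Treg) as CD4+ tdTomato+ GFP+ CD73–. Bulk Treg without the label (tdTomato– Treg) were sorted as CD4+ tdTomato– GFP+ with no gate on CD73, and newly generated conventional T cells (Tconv) as CD4+ tdTomato+ GFP– CD73–. The driver of the recombinase that tamoxifen activates, and the number of animals behind a library, are not given in the sources used here. Each group has 3 libraries, named A, B and D after the letter in the sample titles. The labels do not say whether the libraries of a group are separate animals, and the p-values here reflect only how far libraries differ, which may be technical.

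A ribosome joins a small subunit, which holds the messenger RNA and reads its codons, to a large subunit, which makes the peptide bond. Each subunit is ribosomal RNA dressed with a fixed set of proteins, usually with a single copy of each per ribosome except in the stalk, so the genes are expressed at high and coordinated levels. Most of their messenger RNAs begin with a C and an unbroken stretch of pyrimidines, the TOP motif, through which the mTORC1 kinase controls their translation. In T cells, ribosome production rises on activation, and Rpl22, a large subunit protein, is required in mice for the development of αβ T cells.

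The starts of 9 members that changed in a comparison are shown as 50 bases of the GRCm38.p6 assembly, from RefSeq, on the strand of the gene. The first 30 bases lie before the annotated start and the last 20 from it onward, and capitals mark a C followed by at least 4 pyrimidines (C or T) that begins within 5 bases of the start. Rpl28, Rps2, Rps21 and Rps15 rose in CD73+ Treg, Rpl38 and Rps10 rose in tdTomato– Treg, and Rpl31, Rpl14 and Rps24 fell in tdTomato– Treg. Of these 9 only Rps15 lacks such a run, so they do not represent the changed members, whose shares are given after the sequences.
Rpl28 (chr7:4792935-4792984, + strand): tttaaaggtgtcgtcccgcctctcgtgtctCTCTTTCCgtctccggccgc
Rps2 (chr17:24720033-24720082, + strand): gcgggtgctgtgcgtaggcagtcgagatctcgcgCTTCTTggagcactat
Rps21 (chr2:180257349-180257398, + strand): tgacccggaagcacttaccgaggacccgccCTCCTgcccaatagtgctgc
Rps15 (chr10:80292401-80292450, + strand): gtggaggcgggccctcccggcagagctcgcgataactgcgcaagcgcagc
Rpl38 (chr11:114668550-114668599, + strand): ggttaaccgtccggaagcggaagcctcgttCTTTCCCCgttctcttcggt
Rps10 (chr17:27635225-27635274, – strand): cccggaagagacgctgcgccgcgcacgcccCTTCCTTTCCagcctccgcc
Rpl31 (chr1:39367821-39367870, + strand): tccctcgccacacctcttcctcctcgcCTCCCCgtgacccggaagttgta
Rpl14 (chr9:120571487-120571536, + strand): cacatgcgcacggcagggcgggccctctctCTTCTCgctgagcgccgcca
Rps24 (chr14:24490648-24490697, + strand): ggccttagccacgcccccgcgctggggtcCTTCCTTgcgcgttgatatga

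Such a start was found in 30 of the 64 members that have an entry in the promoter table (46.9%), against 21.1% of the 26961 other genes with an entry. It was found in 17 of 38 large subunit members and in 13 of 26 small subunit members. The run was searched on the gene's strand only, and a window without it, as for Rps15, says only that these letters are not beside this annotated start. Set against the changes below, the share was 3 of 9 among members that rose in CD73+ Treg and 27 of 54 among those not past the threshold there, and 10 of 21 among those that rose, 3 of 6 among those that fell and 17 of 36 among those not past the threshold in tdTomato– Treg against Tconv.

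Levels are log2 CPM, the read count of a gene scaled to a library size by the authors. That size was not the plain sum of the values. The median member stood at 8.31 in Tconv B and 8.38 in Tconv A, where members held 3.65% and 3.08% of summed CPM. Shares of summed CPM and log2 fold changes are therefore on different scales. Libraries held an effective 11000000 to 21400000 counts. The tdTomato– Treg and Tconv values were scaled apart from those of CD73+ and CD73– Treg, so levels are not compared across these pairs. Foxp3, the lineage factor of Treg, ran from 9.07 to 9.25 in the 9 Treg libraries and from -0.77 to 0.88 in Tconv, as labelled. Lars2, a mitochondrial leucyl-tRNA synthetase, took 16.1% to 32.4% of each library. Tconv library B had the lowest Lars2 share. Across other genes, coding GC content correlated at -0.41 with the deviation of Tconv B from the mean of the Tconv libraries. It correlated at 0.29 and 0.25 with those of Tconv A and D, which are tied to Tconv B because deviations within a group cancel. By the same measure CD73– B had -0.27 and tdTomato– D had -0.23.

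Most members were abundant. Summed over the family, they held 3.02% to 3.15% of CPM in CD73+ Treg, 2.84% to 3.09% in CD73– Treg, 2.97% to 3.03% in tdTomato– Treg and 3.08% to 3.65% in Tconv. Leaving Lars2 out of the total, they held 4.41% ± 0.0854 in CD73+ Treg, against 3.95% ± 0.104 in CD73– Treg, and 4.39% ± 0.0889 in tdTomato– Treg and 4.28% ± 0.0802 in Tconv (SD, n = 3 each). The ranges of CD73+ and CD73– Treg overlapped with Lars2 in the total and did not overlap without it, at 4.33% to 4.5% in CD73+ Treg and 3.83% to 4.01% in CD73– Treg. In bulk samples, fewer cells of a type and less RNA per cell cannot be told apart.

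Per kb of transcript (the annotated transcript with the longest coding sequence, which need not be the one expressed), the median large subunit member stood at 454 CPM per kb in CD73+ Treg and 428 in CD73– Treg, and at 459 in tdTomato– Treg and 429 in Tconv. The median small subunit member stood at 544 CPM per kb in CD73+ Treg and 482 in CD73– Treg, and at 548 in tdTomato– Treg and 526 in Tconv. Rps27, a zinc finger protein of the small subunit, was the highest on this scale in each group, at 1280 CPM per kb in CD73+ Treg, 1201 in CD73– Treg, 1448 in tdTomato– Treg and 1239 in Tconv. It was singled out after its values were seen. The lowest were the paralogues and look-alikes: Rpl39l, Rps19bp1, Rps27l and Rpl7l1 lay at or below 33.8 CPM per kb in each group. The median SD of members between 3 libraries was 0.04 log2 units in CD73+ Treg, 0.06 in CD73– Treg, 0.04 in tdTomato– Treg and 0.10 in Tconv. In other genes with a mean log2 CPM above 6 it was 0.06, 0.07, 0.05 and 0.07, so members varied more than these only in Tconv.

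**Figure D1:**
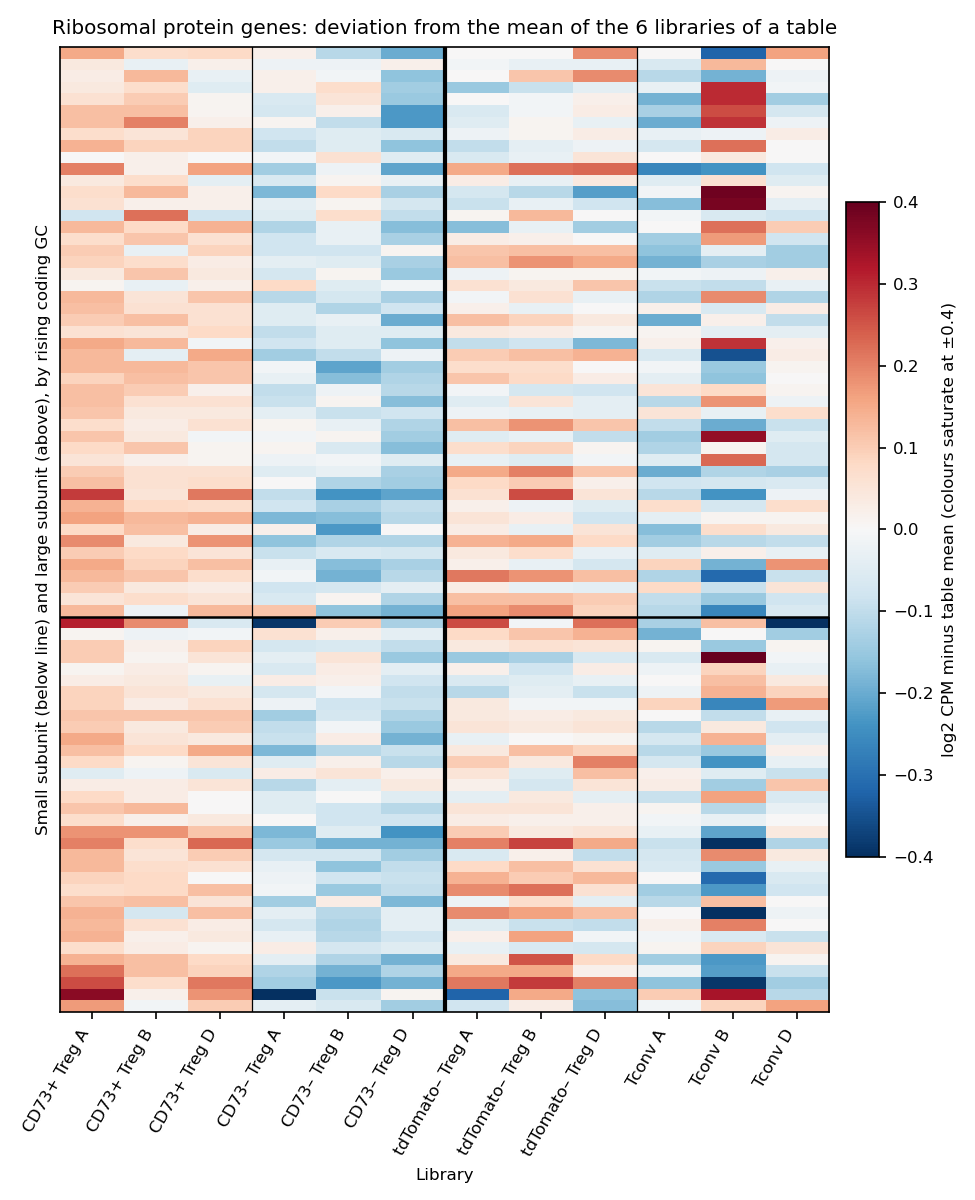
Deviation of each of 83 tested ribosomal protein genes (rows, large subunit above the line, small subunit below it, each by rising coding GC) from its mean over the 6 libraries of its table, in log2 CPM, for 12 libraries (columns); red is above that mean and blue below, and colours saturate at 0.4. CD73+ Treg columns are mostly red and CD73– Treg columns mostly blue, and Tconv B holds strong colours of both signs.

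CD73+ Treg were compared with CD73– Treg, the 2 gates of newly generated Treg. Ribosomal protein genes were slightly higher in CD73+ Treg. Of 83 members tested, 12 rose and none fell past an adjusted p of 0.05 (limma, Benjamini-Hochberg over 11170 genes). Over all genes tested, 1.78% rose and 0.689% fell. The median log2 fold change was 0.15 in the large subunit and 0.15 in the small subunit, against 0.01 over all genes, and 80 of 83 fold changes were above 0, against 51.1% of all genes. An unadjusted p under 0.05 was reached by 52 members, against 17.2% of all genes. The 3 CD73+ libraries lay above the 3 CD73– libraries in 57 members, against 10.0% of all genes, and below them in 1, Rps27rt, against 8.18%. With each library centred on the median of other genes, the split over all genes was 171 higher and 105 lower, against 199 and 77 as fitted. The fit held no block for the library letters. With the letters as a replicate block 33 members rose and none fell, beside 389 higher and 269 lower over all genes. The untested member, Rpl39l, a paralogue of Rpl39 known from testis, ran from -5.17 to -0.59 log2 CPM over the 12 libraries.

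**Figure D2:**
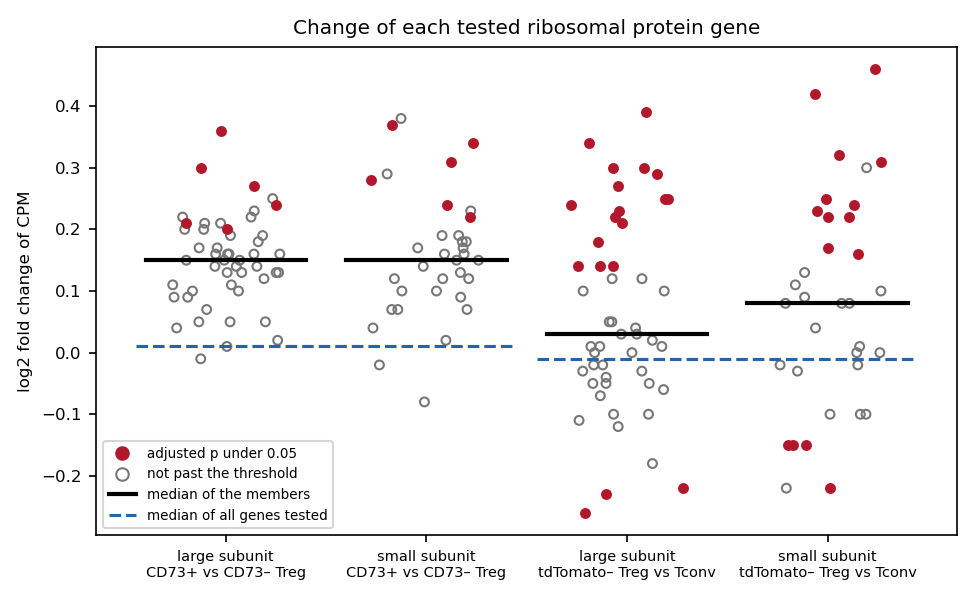
Log2 fold change of CPM (vertical) of each tested ribosomal protein gene, by subunit, in CD73+ over CD73– Treg and in tdTomato– Treg over Tconv; filled red points passed an adjusted p of 0.05, bars are the members' medians and dashed lines the median of all genes tested. In CD73+ Treg the points lie between -0.08 and 0.38 and no filled point is below 0, whereas in tdTomato– Treg they spread from -0.26 to 0.46 with filled points on both sides.

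In the small subunit, 6 of 34 members rose in CD73+ Treg. Rps15, a protein of the head that reaches towards the decoding site, measured 8.53, 8.34 and 8.48 log2 CPM in CD73+ Treg, against 8.13, 8.04 and 8.08 in CD73– Treg (chr10:80292453-80294114). Its groups did not overlap, and it was 1.29-fold higher (log2 fold change 0.37, SE 0.06, adjusted p = 0.0057). Rps2, a protein of the messenger RNA entry channel, measured 9.03, 8.92 and 8.89 log2 CPM in CD73+ Treg, against 8.69, 8.62 and 8.68 in CD73– Treg, a log2 fold change of 0.28 (SE 0.06, adjusted p = 0.0148). Rps21 and Rps7 rose by 0.31 and 0.22 (adjusted p = 0.0156 and 0.0106). Of the 6 fits that left out 1 library, Rps21 was past the threshold in 2 and Rps7 in 6. Rps7 was 9.05 log2 CPM in each CD73+ library, against 8.80, 8.87 and 8.82 in CD73– Treg, so that a small difference stood well outside the spread.

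In the large subunit, 6 of 49 tested members rose in CD73+ Treg. Rpl28, a protein of the mature large subunit, measured 8.32, 8.29 and 8.30 log2 CPM in CD73+ Treg, against 7.98, 7.99 and 8.05 in CD73– Treg (chr7:4792874-4795066). It had the lowest p-value of the family, with a log2 fold change of 0.30 (SE 0.05, adjusted p = 0.00242). Rpl41, a very short protein at the joint of the subunits, measured 8.47, 8.24 and 8.40 log2 CPM in CD73+ Treg, against 8.09, 7.95 and 7.98 in CD73– Treg, a log2 fold change of 0.36 (SE 0.07, adjusted p = 0.0139). Rpl10a, a protein of the stalk beside the exit site, rose by 0.24 (adjusted p = 0.0293). In each of these 3 genes every CD73+ library lay above every CD73– library.

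The stalk that recruits elongation factors is built on Rplp0, which carries dimers of Rplp1 and Rplp2. Rplp0 measured 9.81, 9.75 and 9.74 log2 CPM in CD73+ Treg, against 9.59, 9.54 and 9.57 in CD73– Treg, a log2 fold change of 0.20 (SE 0.05, adjusted p = 0.0328). It was past the threshold in 0 of the 6 fits that left out 1 library, and Rpl10a and Rpl11 in 1 each. The lowest adjusted p among those fits of Rplp0 was 0.0544. Rplp1 and Rplp2 had log2 fold changes of 0.23 and 0.15 and were not past the threshold (adjusted p = 0.108 and 0.293), though with the replicate block Rplp1 was (adjusted p = 0.0203). Rpl5 and Rpl11 bind the 5S ribosomal RNA, and outside the ribosome they hold back Mdm2, the ligase that degrades p53. Rpl11 rose by 0.21 (SE 0.05, adjusted p = 0.0378), with 8.16, 8.19 and 8.18 log2 CPM in CD73+ Treg, against 8.04, 7.90 and 7.95 in CD73– Treg. Rpl5 measured 9.26, 9.29 and 9.17 log2 CPM in CD73+ Treg, against 9.24, 9.29 and 9.08 in CD73– Treg, and its groups overlapped (log2 fold change 0.04, adjusted p = 0.848).

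A further 5 members described for their known roles, Rpl22, Rpl22l1, Rps6, Rps19 and Rpsa, were not past the threshold in CD73+ Treg. Rpl22 had a log2 fold change of 0.18 (SE 0.08, adjusted p = 0.292) and its paralogue Rpl22l1, which Rpl22 represses in mice, one of 0.20 (SE 0.10, adjusted p = 0.316). Rps6, the substrate of the S6 kinases, had one of 0.17 (SE 0.05, adjusted p = 0.0893), and with the replicate block it was past the threshold (adjusted p = 0.0278). Rps19, the gene most often mutated in Diamond-Blackfan anaemia in humans, had one of 0.14 (SE 0.05, adjusted p = 0.184), and Rpsa, also described as a laminin receptor, one of 0.15 (SE 0.05, adjusted p = 0.15).

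**Figure D3:**
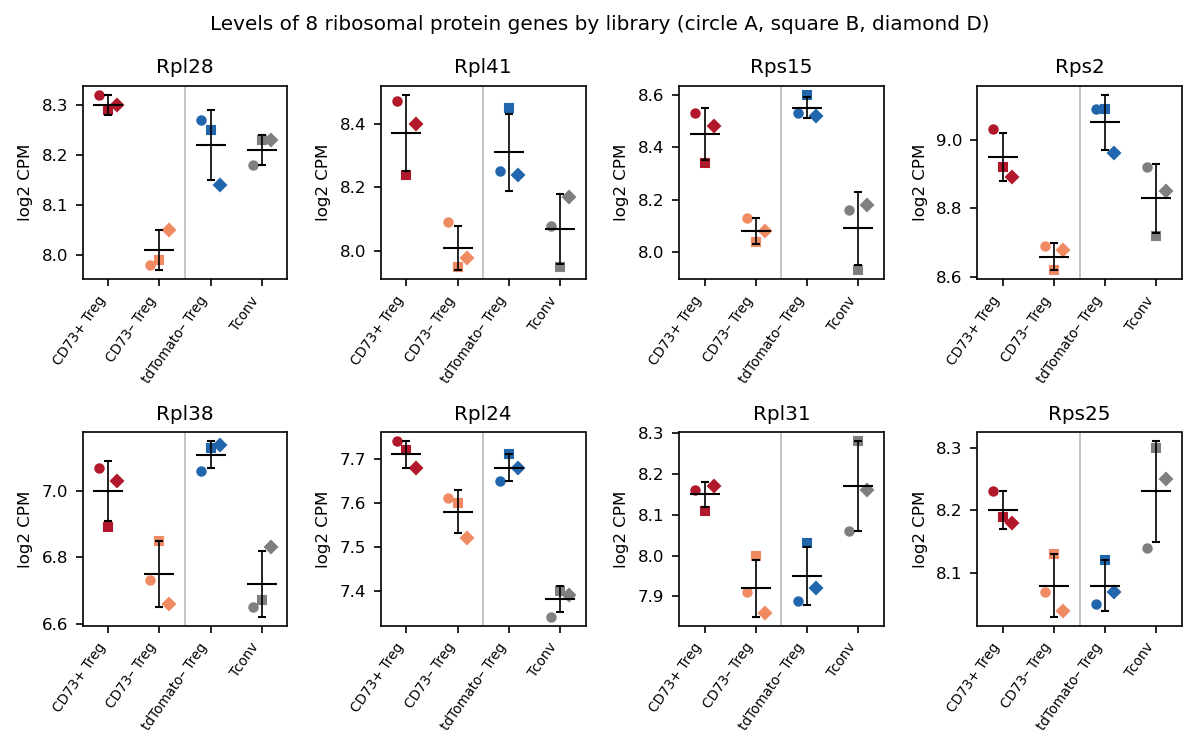
Levels in log2 CPM (vertical, a separate scale per panel that does not start at 0) of 8 ribosomal protein genes in each library (circles A, squares B, diamonds D), with mean and SD over 3 libraries; the grey line parts the 2 tables, whose levels are not compared. Rpl28 separates CD73+ from CD73– Treg and overlaps between tdTomato– Treg and Tconv, and Rpl31 and Rps25 are lower in tdTomato– Treg than in Tconv.

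Ribosomal protein transcripts are short, with a median of 708 bases against 2736 for other genes, and short transcripts of other genes were also higher in CD73+ Treg. Among transcripts of up to 600 bases the median log2 fold change was 0.15 in 30 members and 0.16 in 204 other genes, and between 1000 and 1500 bases it was 0.16 in 11 members and 0.04 in 1176 other genes. In the classes of 600 to 800 and 800 to 1000 bases it was 0.15 and 0.16 in members and 0.08 and 0.07 in other genes. Other genes with a mean log2 CPM above 6 had 0.10 (20 genes), 0.05, 0.03 and 0.02 in these classes, from shortest to longest. The 4 members of 1500 to 2000 bases had a median of 0.12 and the 2 longer ones 0.04 and 0.12, against 0.03 in other genes of 1500 to 2000 bases, 0.00 up to 3000 bases and -0.02 beyond. With each library corrected for transcript length by the other genes, the median was 0.07 in the large and 0.09 in the small subunit, and 2 members stayed past the threshold, Rpl28 and Rps15. With the letters as a replicate block 33 members were past it, all higher. Without CD73+ A it was 4, without CD73+ D 7, without CD73– D 6, and without the libraries of letter D 1, Rpl28, which was past the threshold in all 19 alternative settings (adjusted p = 0.000432 to 0.0452 by limma).

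**Figure D4:**
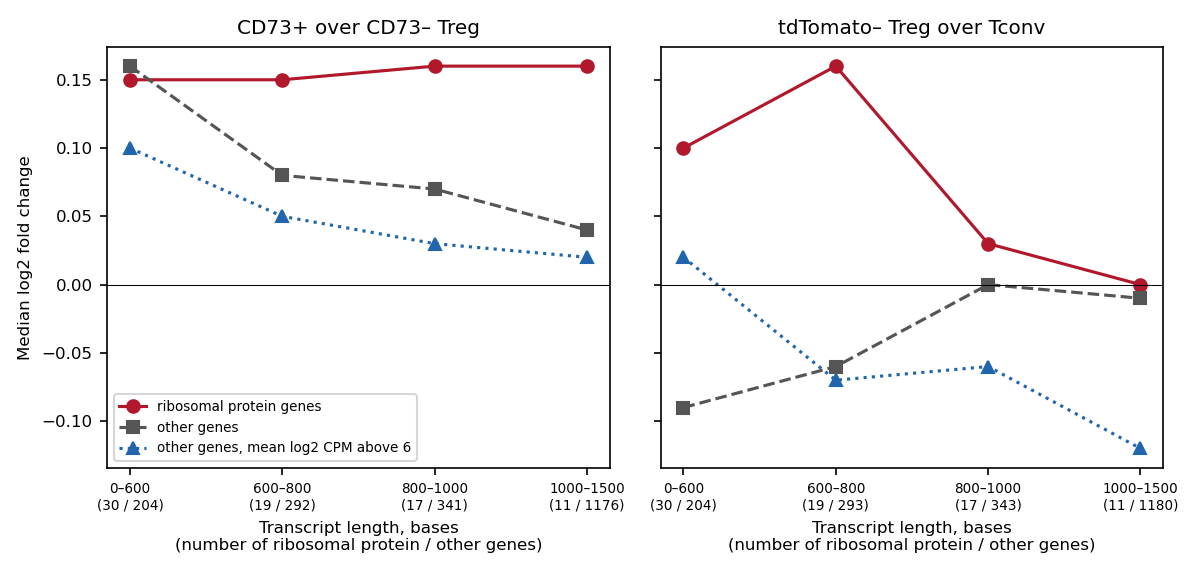
Median log2 fold change (vertical) by class of transcript length in bases (horizontal, with the number of ribosomal protein and other genes in each class), up to 1500 bases, in CD73+ over CD73– Treg (left) and tdTomato– Treg over Tconv (right); red is ribosomal protein genes, grey other genes and blue other genes with a mean log2 CPM above 6. On the left, in these 4 classes, ribosomal protein genes have medians of 0.15 to 0.16, and other genes 0.16 in the shortest class and 0.04 in the longest. Other genes above 6 have 0.10 in the shortest class and 0.02 in the longest.

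GC content moved with the change as well. Across the 83 members the Spearman correlation of the log2 fold change with coding GC content was 0.34, and across 11078 other genes it was 0.18; these values share libraries and genes are not independent, so they are given as a description. In CD73– B, members deviated from the table mean by a median of 0.01 where coding GC was up to 50% and by -0.12 where it was above 55%, and in CD73+ A by 0.07 and 0.14. With each library corrected for coding GC content by the other genes, 19 members were past the threshold.

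Between tdTomato– Treg and Tconv, the other pair that shares a table, the family split. These groups differ in lineage, in the label and in the CD73 gate at once, which cannot be told apart. Of 83 members, 27 rose and 7 fell in tdTomato– Treg, while of all genes tested 26.4% rose and 25.7% fell (limma, adjusted p under 0.05). The large subunit had 16 that rose and 3 that fell with a median log2 fold change of 0.03, and the small subunit 11 that rose and 4 that fell with a median of 0.08, against -0.01 over all genes. The 3 tdTomato– libraries lay above the 3 Tconv libraries in 32 members and below them in 9, against 30.5% of all genes in each direction. The count that rose was thus near its background share, and the count that fell was below it.

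The members that rose furthest in tdTomato– Treg came from both subunits. Rps15 measured 8.53, 8.60 and 8.52 log2 CPM in tdTomato– Treg, against 8.16, 7.93 and 8.18 in Tconv, a 1.38-fold difference (log2 fold change 0.46, SE 0.06, adjusted p = 1.46e-05). Tconv B was its lowest library. Rpl38, needed in mice for the translation of Hox messenger RNAs, measured 7.06, 7.13 and 7.14 log2 CPM in tdTomato– Treg, against 6.65, 6.67 and 6.83 in Tconv, a log2 fold change of 0.39 (SE 0.07, adjusted p = 9.77e-05). Rpl24, part of a bridge between the subunits, measured 7.65, 7.71 and 7.68 log2 CPM in tdTomato– Treg, against 7.34, 7.40 and 7.39 in Tconv, a log2 fold change of 0.30 (SE 0.05, adjusted p = 3.02e-05). Its 3 Tconv libraries lay within 0.06 log2 units of each other, Tconv B among them. Rps10, a protein near the messenger RNA entry that is ubiquitinated when ribosomes collide, rose by 0.31 (adjusted p = 0.000204). Rpl13, Rpl37 and Rps14 rose by 0.34, 0.30 and 0.32 (adjusted p = 0.00012, 5.55e-05 and 0.00786).

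The 7 members that fell were Rpl31, Rpl14 and Rpl36al of the large subunit and Rps25, Rpsa, Rps29 and Rps24 of the small subunit. Rpl31, at the mouth of the peptide exit tunnel, measured 7.89, 8.03 and 7.92 log2 CPM in tdTomato– Treg, against 8.06, 8.28 and 8.16 in Tconv, a log2 fold change of -0.22 (SE 0.06, adjusted p = 0.00481). Rps25, which several viral RNAs need for internal initiation, measured 8.05, 8.12 and 8.07 log2 CPM in tdTomato– Treg, against 8.14, 8.30 and 8.25 in Tconv, a log2 fold change of -0.15 (SE 0.05, adjusted p = 0.0166). Rpl14 measured 7.84, 7.86 and 7.76 log2 CPM in tdTomato– Treg, against 7.96, 8.23 and 7.96 in Tconv, a log2 fold change of -0.23 (SE 0.07, adjusted p = 0.0097). Tconv B was the highest library for each of these 3 genes. Rps24 measured 9.41, 9.43 and 9.50 log2 CPM in tdTomato– Treg, against 9.50, 9.96 and 9.55 in Tconv, so the groups touched at 9.50 and most of the difference lay in Tconv B (log2 fold change -0.22, adjusted p = 0.0433). Rpsa measured 9.8, 9.76 and 9.75 log2 CPM in tdTomato– Treg, against 9.87, 10.05 and 9.85 in Tconv, and it and Rps29 each had a log2 fold change of -0.15 (adjusted p = 0.0234 and 0.0464). Without Tconv B 3 members fell, and of these 7 only Rpl31 did (log2 fold change -0.16, adjusted p = 0.0256), while without Tconv A 12 fell.

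The other members fixed for description showed small differences in tdTomato– Treg. Rpl11 rose by 0.14 (adjusted p = 0.031), with 8.22, 8.19 and 8.14 log2 CPM in tdTomato– Treg, against 8.07, 7.95 and 8.11 in Tconv, and its partner Rpl5 had a log2 fold change of -0.18 that was not past the threshold (adjusted p = 0.057). The stalk genes Rplp0, Rplp1 and Rplp2 had log2 fold changes of -0.04, -0.05 and 0.04, none past the threshold. Rps6, Rps19 and Rpl22 had 0.10, 0.11 and -0.03, also not past it, and Rpl22l1 had 0.12 (adjusted p = 0.342).

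Some members have near-identical copies in the genome, and reads of ribosomal protein genes may be split with processed pseudogenes, so single values of such pairs are uncertain. Rpl39 measured 7.88, 7.99 and 8.07 log2 CPM in tdTomato– Treg, against 7.77, 7.69 and 7.86 in Tconv, and rose by 0.21 (adjusted p = 0.0133). Rps27 rose by 0.23 (adjusted p = 0.00373), while its retrogene Rps27rt and its paralogue Rps27l had 0.08 and 0.30 and were not past the threshold (adjusted p = 0.291 and 0.128). In CD73+ against CD73– Treg, Rps27rt had the lowest log2 fold change of the family, -0.08 (SE 0.06, adjusted p = 0.561), with 5.75, 5.78 and 5.74 log2 CPM in CD73+ Treg, against 5.83, 5.85 and 5.82 in CD73– Treg, beside 0.09 in Rps27. Rpl36al, which differs little from Rpl36a, fell by 0.26 in tdTomato– Treg (adjusted p = 0.0282), and Rpl36a had -0.05 (adjusted p = 0.705); in both genes Tconv B was the highest Tconv library, at 6.59 and 7.30 log2 CPM. Rpl7l1, Rpl7, Rpl3, Rpl10, Rps4x and Rps19bp1 were past the threshold in neither comparison, though with the replicate block Rpl3 was in CD73+ Treg (adjusted p = 0.00966).

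The pairs of groups have no library in common, so the changes can be set side by side. The 7 members that rose in both, 58.3% of the 12 that rose in CD73+ Treg and 25.9% of the 27 that rose in tdTomato– Treg, included Rps15, Rpl41, Rps2 and Rpl11. None rose in 1 comparison and fell in the other. The same overlaps over all genes were not computed, so these counts are not read as a trait of the family. The log2 fold changes of the comparisons had a Spearman correlation of 0.23 across the 83 members and 0.24 across 11084 other genes, which are not independent replicates.

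**Figure D5:**
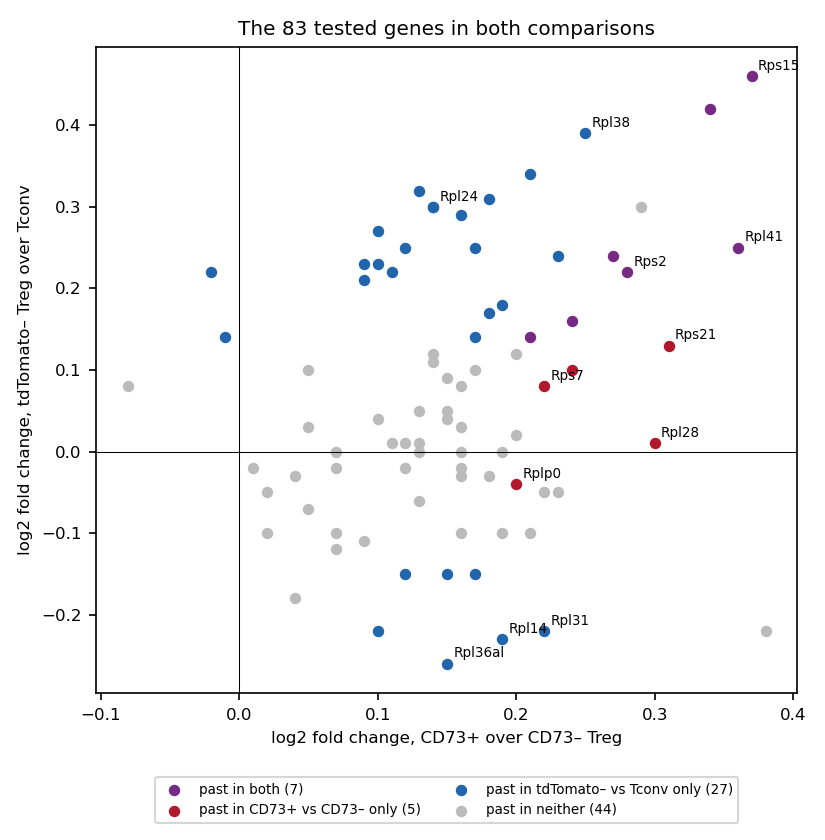
Log2 fold change in CD73+ over CD73– Treg (horizontal) against that in tdTomato– Treg over Tconv (vertical) for 83 ribosomal protein genes; colours show in which comparison a gene passed an adjusted p of 0.05. Rps15 lies at the upper right, Rpl28 far right near 0 on the vertical axis, and Rpl31, Rpl14 and Rpl36al below 0 on the vertical axis only.

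The difference between the comparisons was itself tested, as an interaction in the same limma fit. It was past an adjusted p of 0.05 in 16 of 83 members, a smaller share than the 36.5% of all genes tested. In 15 of the 16 the change in CD73+ Treg was the more positive, and the split by direction over all genes was not computed. The interaction was fitted without correction for transcript length and was not refitted with it. With that correction the large and small subunit medians were 0.07 and 0.09 in CD73+ over CD73– Treg (0.15 and 0.15 as fitted). In tdTomato– Treg over Tconv they were 0.06 and 0.1 (0.03 and 0.08 as fitted). Rpl31 differed most surely, with log2 fold changes of 0.22 in CD73+ over CD73– Treg and -0.22 in tdTomato– Treg over Tconv, a difference of 0.44 (SE 0.08, adjusted p = 0.000462). Rpl28, with 0.30 and 0.01, differed by 0.29 (SE 0.07, adjusted p = 0.00215), and Rplp0, with 0.20 and -0.04, by 0.24 (SE 0.07, adjusted p = 0.00907). Rps15a was the exception, named for that after its values were seen, with -0.02 in CD73+ over CD73– Treg and 0.22 in tdTomato– Treg over Tconv (adjusted p of the difference 0.0132). For Rps15 the difference was not past the threshold (-0.09, SE 0.09, adjusted p = 0.458).

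Genes that make or serve the ribosome were taken from lists, described by counts alone. In CD73+ over CD73– Treg few of them changed, all higher. Fau, whose product is cut into a ubiquitin-like protein and the small subunit protein S30 and which the symbol rule does not reach, rose by 0.20 (adjusted p = 0.033). Of 19 translation factors and other genes listed for their TOP messenger RNAs 1 rose, Pabpc1, the poly(A)-binding protein (0.21, adjusted p = 0.0288). Of 27 genes listed as initiation factors by name Eif5a rose (0.19, adjusted p = 0.0482). Of 20 genes of RNA polymerase I, which makes ribosomal RNA, Polr1c rose (0.46, adjusted p = 0.0293). None of 44 ribosome biogenesis factors, 78 mitochondrial ribosomal protein genes and 21 tested regulators (mTORC1, S6 kinases and MYC) was past the threshold, and their median log2 fold changes were 0.10, 0.08 and 0.02, against 0.01 over all genes.

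In tdTomato– Treg over Tconv the lists are to be read against the 26.4% of all genes that rose and the 25.7% that fell. Of 44 biogenesis factors 22 fell (50%) and none rose, with a median log2 fold change of -0.27. Sdad1, needed for export of the large subunit in yeast, measured 4.88, 4.77 and 4.89 log2 CPM in tdTomato– Treg, against 5.6, 5.66 and 5.46 in Tconv (log2 fold change -0.73, adjusted p = 1.16e-05), and Tsr1, a small subunit assembly factor, fell by 0.64 (adjusted p = 5.87e-06). Of the 20 RNA polymerase I genes 8 fell (40%) and 2 rose (10.0%), among them Polr1a, its catalytic subunit (-0.58, adjusted p = 6.41e-08), and Rrn3 (-0.51, adjusted p = 8.16e-05). Of the 27 genes listed as initiation factors 13 fell (48.1%) and 1 rose (3.70%). Among those that fell were Eif4a1, an RNA helicase (-0.44, adjusted p = 2.59e-06), and Eif4g2 (-0.42, adjusted p = 9.61e-07). Of 78 mitochondrial ribosomal protein genes 21 fell (26.9%, near the share of all genes) and 3 rose (3.85%), with a median of -0.17. Mrps30 had the lowest p-value of them (-0.90, adjusted p = 2.76e-07).

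Of 21 tested regulators of ribosome synthesis 6 rose (28.6%, near the share of all genes) and 2 fell (9.52%, below it) in tdTomato– Treg. Myc, an activator of ribosomal genes, measured 6.57, 6.68 and 6.5 log2 CPM in tdTomato– Treg, against 5.77, 5.93 and 5.89 in Tconv (log2 fold change 0.72, adjusted p = 2.13e-06), and Mxd1, an antagonist of Myc, rose by 1.22 (adjusted p = 5.1e-10). The kinase genes Rps6ka3 and Rps6kb1 fell by 0.62 and 0.26 (adjusted p = 1.12e-07 and 0.00563). Of the 19 translation factors and other genes listed for their TOP messenger RNAs 3 rose (15.8%) and 4 fell (21.1%), both shares below those of all genes. Hnrnpa1, which is not a translation factor, had the lowest p-value of that list (-0.47, adjusted p = 1.23e-05). Fau rose by 0.32 (adjusted p = 2.64e-05).

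Markers of other cells were summed in each library. Their counts are to be read against all genes tested. Of those, 26.4% rose and 25.7% fell in tdTomato– Treg, and 1.78% rose and 0.689% fell in CD73+ Treg. Of 8 B cell markers, 2 were tested and 1 was higher in tdTomato– Treg; their summed level was 9.38 to 12.1 CPM in tdTomato– Treg and 3.94 to 5.76 in Tconv, and 4.15 to 6.55 in CD73+ Treg and 4.48 to 7.22 in CD73– Treg. Of 13 myeloid and dendritic markers in the table, 6 were tested and 4 were higher in tdTomato– Treg, with sums of 29.8 to 42.2 CPM in tdTomato– Treg and 17.6 to 19.1 in Tconv, and 23.5 to 30.5 in CD73+ Treg and 17.5 to 26.2 in CD73– Treg. Markers of CD8 and double-positive thymocytes summed to 47.2 to 54.1 CPM in CD73+ Treg and 46.5 to 109 in CD73– Treg, and to 88.5 to 109 in tdTomato– Treg and 93.5 to 97.8 in Tconv. Of 8 of these tested, 1 was higher and 1 lower in CD73+ Treg, and 3 were higher and 2 lower in tdTomato– Treg. Innate-like markers summed to 194 to 202 CPM in CD73+ Treg and 209 to 218 in CD73– Treg, and to 171 to 175 in tdTomato– Treg and 124 to 130 in Tconv, and neither pair of ranges overlapped. Of 4 of these tested, 1 was higher in CD73+ Treg, and 3 were higher and 1 lower in tdTomato– Treg. Of 5 erythroid markers tested 2 were higher in tdTomato– Treg, and of 2 thymic epithelial and stromal markers tested 1 was. All 7 general T cell genes tested fell in tdTomato– Treg (median log2 fold change -0.75). No gene of these 3 lists was past the threshold in CD73+ Treg. Of 16 tested immediate early and heat shock genes, which respond to cell handling, 6 rose (37.5%) and 2 fell (12.5%) in tdTomato– Treg and none was past the threshold in CD73+ Treg. The part of these genes in the changes of ribosomal protein genes was not tested.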

How the data were processed

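Per the labels' protocols, TRIzol served for RNA extraction and KAPA RNA HyperPrep for library construction. STAR, RSEM and limma, with the mm10 build, are named in the submitters' processing notes; their versions are not given in the sources used here. As values the authors deposited log2 CPM per gene and library in 2 merged tables of 6 libraries, with an offset of 0.5 count read from the values, and their own log2 fold changes and p-values; by the authors' deposited table, an FDR under 0.05 gave 14 members that rose and 0 that fell in CD73+ Treg, and 27 and 6 in tdTomato– Treg.

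The members, the gene lists and the tests were chosen with earlier results of these data known. limma 3.58.1 in R 4.3.3 was fitted to all 12 libraries with 4 group means, an intensity trend and no block, to genes that reached a log2 CPM of 0 in 3 or more libraries; two-sided p-values were adjusted (Benjamini-Hochberg) across every gene tested in a comparison. The fit was tested on simulated data. A gene with no count has an upper limit of 3 counts, a log2 CPM of -2.61 to -1.65, which covers counting error only. Gene positions, coding sequences and transcript lengths (of the transcript with the longest coding sequence) came from GENCODE M21 on the mm10 build, which matched 99.91% of gene IDs, and all 84 members had a value. Windows at starts came from RefSeq. Summaries used Python 3.11.15, pandas 2.3.3 and scipy 1.17.1, and plots matplotlib 3.10.9.

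Named members were, per comparison and subunit, up to 4 with the highest and 4 with the lowest fold changes past the threshold, the stalk and 5S-binding genes, Rpsa, Rps6, Rps19, Rpl22, and paralogues with their parents; of the other lists, up to 2 per direction by p. Some genes that this rule takes in are not reported here. Pairing by the letters of the sample titles was checked by correlating, over 9942 genes, how libraries departed from their group's mean. Same-letter libraries correlated at 0.146, 0.266 and 0.222 between CD73+ and CD73– Treg, and the letters were taken to pair them. Between tdTomato– Treg and Tconv they correlated at 0.117, 0.114 and 0.0536, also all above 0, yet the letters were not taken to pair them. Different-letter libraries ran from -0.228 to 0.00823 and from -0.141 to 0.0652 in these pairs of groups. Deviations within a group cancel, so same-letter correlations above 0 by themselves push the different-letter ones down. The check therefore cannot decide whether the letters pair libraries in either pair of groups. Deviations of CD73+ B and CD73– B also both correlated with coding GC content, at -0.15 and -0.27. The part of GC content in the same-letter values was not tested. The fit as given holds no block, so its calls ignore any pairing of CD73+ and CD73– Treg. Corrections for GC content, coding length and transcript length and the test of the difference between comparisons were added as alternatives after seeing the data.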

Additional observations from a re-analysis of the deposited data

How the results depend on the processing

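In CD73+ against CD73– Treg, no member fell in any of the 19 alternatives (16 planned, 3 added after seeing the data). The count of members that rose moved from 12 to 25 with quantile normalisation, 2 without the intensity trend, 33 with the replicate block, 1 without the libraries of letter D, and 19, 7 and 2 with correction for GC content, coding length and transcript length, and to 4 to 13 leaving out 1 library. The medians moved to 0.10 with correction for coding length in both subunits and to 0.07 (large) and 0.09 (small) for transcript length, to 0.19 with quantile normalisation in the small subunit, and to 0.13 to 0.17 in either leaving out 1 library. Over all genes, 276 calls became 151 with only the groups compared, 107 without the trend, 658 with the replicate block (389 higher, 269 lower, against 199 and 77), 46 without letter D and 101 to 369 leaving out 1 library; centring on the median of other genes gave 171 higher and 105 lower, and GC correction 203 higher and 122 lower.

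In tdTomato– Treg against Tconv, 7 lower members became 11 with centring and with the replicate block, 3 without the trend, 4 without letter D, 4 with correction for coding length and 3 to 12 leaving out 1 library. The large subunit median of 0.03 became 0.05 (quantile), -0.01 (centring), 0.06 (GC), 0.09 (coding length), 0.06 (transcript length) and 0.01 to 0.07 leaving out 1 library. The members higher stayed at 23 to 33 throughout.

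Of the members named, direction turned in 13 gene and comparison pairs, none past the threshold as fitted. In CD73+ Treg, these were Rpl5 (-0.01 for coding length, -0.02 to 0.08 leaving out 1 library), Rps4x (-0.04 for transcript length, -0.01 without CD73– D), Rpl39 and Rps27 (-0.01 each, transcript length), Rpl7 (-0.02, transcript length) and Rpl7l1 (-0.05 without CD73+ B). In tdTomato– Treg, these were Rplp0 (0.01 with quantile, 0.00 without letter D), Rplp1 (0.04 without letter D, 0.03 for coding length, -0.16 to 0.02 leaving out 1 library), Rplp2 (-0.01 for GC, -0.04 to 0.08 leaving out 1 library), Rpl22 (0.05 for GC and for coding length, 0.01 for transcript length, -0.11 to 0.09 leaving out 1 library), Rpl22l1 (-0.02 to 0.22 leaving out 1 library), Rpl36a (0.04 for GC and for coding length, -0.16 to 0.09 leaving out 1 library) and Rpl7 (-0.01 with centring and without letter D). The cause of these changes was not tested.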
